A study of Mus musculus with 65 samples.

Results

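The distal ends of mouse chromosomes 4, 9 and 13 carried dense groups of binding sites for 4 proteins of the meiotic chromosome axis and its break-forming machinery, MEI4, IHO1, HORMAD1 and SYCP3. The sites described here are the peaks of 21 deposited peak lists (4 proteins, 6 genotypes) on these chromosomes whose centre lay within 3 Mb of the last peak end of the chromosome over all deposited lists, on the mm10 build of the mouse genome. They numbered 1182 of 45774 peaks, of which 204 were on chromosome 4, 818 on chromosome 9 and 160 on chromosome 13. Peaks that shared at least 1 bp across lists merged into 199 regions, 57 on chromosome 4, 92 on chromosome 9 and 50 on chromosome 13. The ends were chosen by the peak positions and counts of these lists, so the counts at the ends are given as a description.

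Meiotic cells cut their own DNA to start recombination. PRDM9, a histone methyltransferase with a zinc-finger DNA-binding domain, marks the hotspots, and SPO11 is the catalytic subunit of the enzyme that makes the breaks. MEI4 and IHO1 are accessory proteins needed for break formation. They assemble on the chromosome axis, of which SYCP3 is a structural component and HORMAD1 a regulator that recruits IHO1. DMC1 is a recombinase loaded onto broken ends, so its sites mark where breaks were made, and CTCF is an architectural protein that binds DNA at insulators and loop anchors. In mouse spermatocytes the distal ends of chromosomes 4, 9 and 13 and the pseudoautosomal region of the sex chromosomes are known from cytology as places where MEI4, IHO1 and their partners accumulate in large assemblies over minisatellite arrays.

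Chromatin immunoprecipitation sequencing was done on whole testes of synchronised mouse pups. Male pups were fed an inhibitor of retinoic acid synthesis for 7 to 10 days from 1.5 days after birth. The sources used here write the compound as WIN 18466. The pups were then given 1 injection of retinoic acid. Testes were taken 8 days later, when 80 to 95% of spermatocytes were in leptotene or zygotene, and fixed in 4% formaldehyde for 15 minutes. The wild type was C57BL/6JCrl and the knockouts were Prdm9KO (B6;129P2-Prdm9tm1Ymat/J), Spo11KO (Spo11tm1Mjn), Mei4KO (Mei4tm1Bdm), Iho1KO (Iho1tm1.2Atot) and Hormad1KO (Hormad1tm1.2Atot). The strain name of Prdm9KO gives a background other than that of the wild type, so genotype and background cannot be told apart there. All mice of all groups had the same synchronisation, and the signal of each protein's own knockout had been subtracted from its libraries, so no list of a protein in its own knockout is used. Each group has 1 list, with 2 samples in the labels for 18 of the 21 groups and 1 sample for SYCP3 in Prdm9KO, Spo11KO and Iho1KO. There is thus no spread between replicates, the read depth behind the lists is unknown, and the 21 lists give positions with no strength. Intervals are 95% Wilson intervals for shares and 95% Newcombe intervals for differences of shares. They cover counting error only, and neighbouring peaks are not independent. Counts of peaks over the 21 lists hold a site once for each peak of each list that covers it. A difference is called where its interval excludes 0. The share of protein peaks that overlap DMC1, CTCF or annotated promoters did not choose the ends. The other intervals, with those for hotspots that carry a protein peak, describe the lists and test nothing.

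Of the 1182 peaks 581, or 49.2%, lay over a protein-coding gene, chemokine receptor genes among them, against 56.8% of the peaks elsewhere. The share was lower than in the rest of the list in 8 lists, higher in 3 and not called in 10. The sequences of 5 promoters under peaks are shown, each 300 bases from 250 before to 50 after the gene's start. They are from RefSeq on GRCm38, 5′ to 3′ on the gene's strand. Ccr1, Ccr1l1 and Samd11 are shown because peaks of 15, 14 and 10 lists covered them, and Fyco1 and B3galt6 because they hold a tandem repeat. Capitals mark a telomere repeat unit in Ccr1l1 and the tandem repeat in Fyco1 and B3galt6.
Ccr1 (chr9:123968643-123968942, minus strand): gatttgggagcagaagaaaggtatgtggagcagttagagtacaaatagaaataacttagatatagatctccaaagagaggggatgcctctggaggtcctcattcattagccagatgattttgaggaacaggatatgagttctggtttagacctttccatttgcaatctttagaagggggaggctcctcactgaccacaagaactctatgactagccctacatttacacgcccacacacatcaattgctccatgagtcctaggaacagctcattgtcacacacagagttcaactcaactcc
Ccr1l1 (chr9:123986666-123986965, minus strand): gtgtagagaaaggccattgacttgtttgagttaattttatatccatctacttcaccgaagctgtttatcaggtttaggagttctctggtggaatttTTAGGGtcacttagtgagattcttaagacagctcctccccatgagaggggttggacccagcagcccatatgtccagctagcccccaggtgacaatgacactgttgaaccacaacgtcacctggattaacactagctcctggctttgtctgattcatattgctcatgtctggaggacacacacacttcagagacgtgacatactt
Samd11 (chr4:156255293-156255592, minus strand): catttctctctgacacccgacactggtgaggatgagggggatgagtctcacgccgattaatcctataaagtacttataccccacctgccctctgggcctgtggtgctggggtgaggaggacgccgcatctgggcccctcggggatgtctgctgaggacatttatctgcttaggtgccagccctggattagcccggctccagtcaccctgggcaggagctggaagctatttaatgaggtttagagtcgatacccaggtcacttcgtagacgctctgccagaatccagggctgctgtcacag
Fyco1 (chr9:123851850-123852149, minus strand): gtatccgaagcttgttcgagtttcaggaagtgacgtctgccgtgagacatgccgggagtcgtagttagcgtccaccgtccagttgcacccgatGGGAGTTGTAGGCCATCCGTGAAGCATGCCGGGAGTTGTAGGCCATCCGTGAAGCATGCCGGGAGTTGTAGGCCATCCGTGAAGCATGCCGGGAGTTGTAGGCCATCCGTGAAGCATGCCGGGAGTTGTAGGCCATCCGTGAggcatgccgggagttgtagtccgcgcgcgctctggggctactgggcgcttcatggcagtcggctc
B3galt6 (chr4:155992629-155992928, minus strand): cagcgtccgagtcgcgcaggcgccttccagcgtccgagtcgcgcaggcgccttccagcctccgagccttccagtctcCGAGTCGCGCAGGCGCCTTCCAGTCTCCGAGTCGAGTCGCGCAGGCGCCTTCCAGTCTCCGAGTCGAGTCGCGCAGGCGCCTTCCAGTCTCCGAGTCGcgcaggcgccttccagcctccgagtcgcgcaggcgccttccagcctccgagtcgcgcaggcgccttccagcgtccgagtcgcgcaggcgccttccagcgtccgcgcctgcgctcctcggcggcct
The Fyco1 promoter held 4.73 copies of a unit of 30 bases over 142 bases, and the B3galt6 promoter held 3.06 copies of a unit of 32 bases over 98 bases. Fyco1 encodes an adaptor of autophagosome transport, and 9 lists had a peak over its repeat. B3galt6 encodes a galactosyltransferase, and its promoter was under a peak of 1 list, SYCP3 in Iho1KO. A repeat of this kind (a unit of 10 to 60 bases that matched its next copy at every base over at least 60 bases) was found in 4 of the 209 promoters of the windows, or 1.91%, and in 54 of all 32851 promoters, or 0.164%. The 4 promoters, those of Fyco1, B3galt6 and a pair of Sdf4, share 2 stretches of sequence. The telomere unit TTAGGG, searched on both strands, was in 24 of 209 promoters of the windows (11.5%) and in 3483 of all promoters (10.6%).

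The end of chromosome 9 held more peaks of the 21 lists than any other chromosome end. Its 818 peaks ranked 1 of 21 chromosome ends, followed by chromosome 4 with 204, chromosome X with 193 and chromosome Y with 169. Chromosome 13 ranked 5 with 160 peaks, close to chromosome 19 with 149. Over the other 16 autosomes the count in the same last 3 Mb ran from 11 to 149 with a median of 56.5. Chromosomes 4, 9, X and Y had at least 1 peak there in all 21 lists. Chromosome 13 had one in 20, the exception being IHO1 in Mei4KO, and so did chromosomes 15 and 19 in 20 lists each. The windows overlapped 70 protein-coding genes on chromosome 4, 56 on chromosome 9 and 23 on chromosome 13. Both just inside and just outside the edge of each window the nearest peak was one of HORMAD1 in Mei4KO. On chromosome 9 its centre was 2.66 Mb from the last peak end on the inside and 3.11 Mb on the outside.

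**Figure D1:**
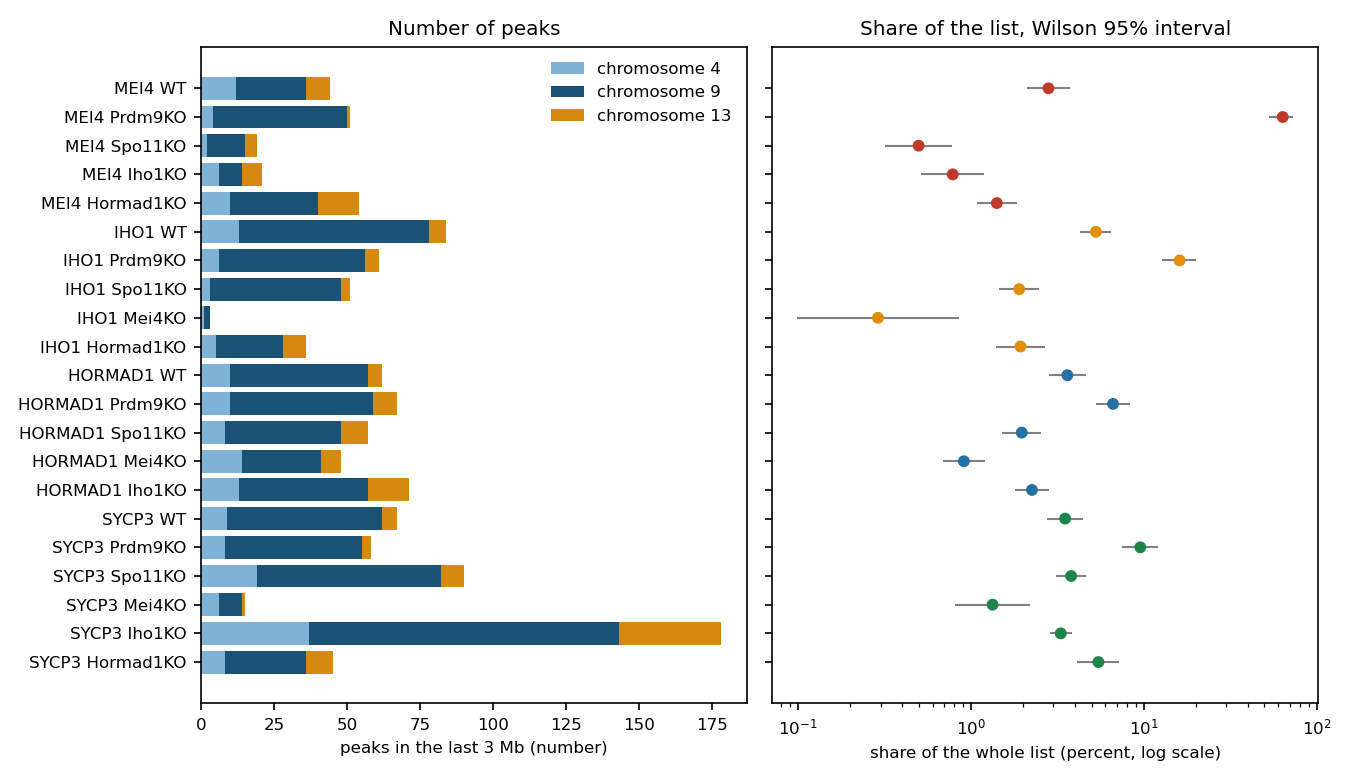
Peaks in the last 3 Mb of chromosomes 4, 9 and 13 in each of the 21 lists, as numbers stacked by chromosome (left) and as a share of the whole list on a log axis with its Wilson 95% interval (right). IHO1 in Mei4KO has 3 peaks and SYCP3 in Iho1KO 178, and the MEI4 list of Prdm9KO has the highest share, 63.8%.

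MEI4 had 44 peaks at these ends in the wild type (12 on chromosome 4, 24 on chromosome 9, 8 on chromosome 13), 51 in Prdm9KO, 19 in Spo11KO, 21 in Iho1KO and 54 in Hormad1KO. The whole MEI4 list of Prdm9KO held 80 peaks, so 63.8% of it (interval 52.8 to 73.4) lay at these 3 ends, against 2.81% of the wild-type list. By length the ends took 294 of the 356 kb under MEI4 peaks in Prdm9KO, and 46 of the 51 peaks were on chromosome 9. In that list the X end held 6 further peaks and the other 16 autosome ends none. Over the 21 lists together the ends held 2.58% of all peaks.

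IHO1 had 84 peaks at the ends in the wild type, 61 in Prdm9KO, 51 in Spo11KO, 36 in Hormad1KO and 3 in Mei4KO. The 3 peaks of Mei4KO were 0.29% of its 1036 IHO1 peaks, a difference of -5.00 points from the wild-type share of 5.29% (interval -6.22 to -3.85). At the X end IHO1 still had 7 peaks in Mei4KO, against 21 in the wild type. HORMAD1 had 62 peaks in the wild type, 67 in Prdm9KO, 57 in Spo11KO, 48 in Mei4KO and 71 in Iho1KO. SYCP3 had 67 in the wild type, 58 in Prdm9KO, 90 in Spo11KO, 15 in Mei4KO, 178 in Iho1KO and 45 in Hormad1KO. HORMAD1 thus ranged from 48 to 71 peaks over its lists, and SYCP3 from 15 to 178. The share of a list also moves with the peaks elsewhere: the 48 HORMAD1 peaks of Mei4KO were 0.91% of 5275, and the 67 of Prdm9KO 6.64% of 1009. Of the 17 knockout lists, 5 had a higher share than the wild type of the same protein, the 4 Prdm9KO lists and SYCP3 in Hormad1KO (not called without chromosome 4 or 13), 10 had a lower share and 2 did not differ beyond counting error. Without chromosome 9 the lower lists were 6, and SYCP3 in Iho1KO changed from -0.20 points, not called, to 0.61 points, called higher.

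The peaks lay close together, and most in the last 1 Mb. That last 1 Mb held 1004 of the 1182 peaks, 84.9%, with 736 on chromosome 9, 166 on chromosome 4 and 102 on chromosome 13. On chromosome 9 the last 0.5 Mb alone held 555 peaks, while on chromosome 13 it held 21. Runs of peaks whose neighbouring centres lay within 50 kb were longest on chromosome 9, with 32 peaks of IHO1, 27 of SYCP3, 24 of HORMAD1 and 8 of MEI4 in the wild type. At the other 16 autosome ends the longest wild-type run held 2 peaks for each protein, and at the X end 16 for IHO1, 10 for HORMAD1, 6 for SYCP3 and 4 for MEI4. The median distance from an IHO1 peak to the next was 8.50 kb at the 3 ends and 735 kb in the rest of the wild-type list. In Mei4KO the longest run was 1 peak for IHO1 and 3 for SYCP3, but 11 for HORMAD1. HORMAD1 in Mei4KO had a longer run, of 15, at the other 16 autosome ends, and IHO1 a run of 7 at the X end.

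**Figure D2:**
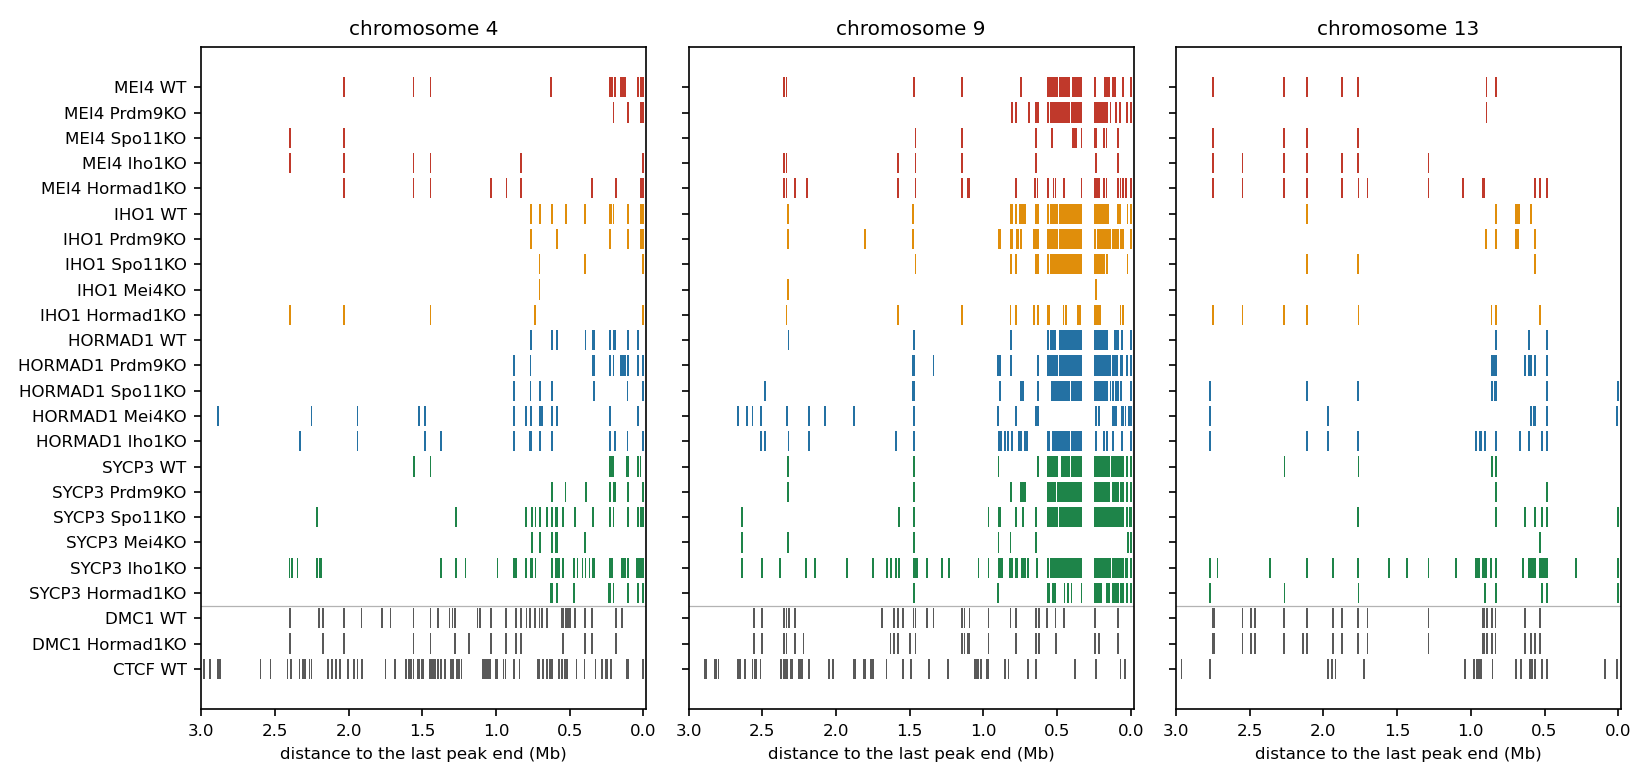
Position of each peak in the last 3 Mb of chromosomes 4, 9 and 13, as distance to the last peak end in Mb (right edge of each panel, 0), 1 row per list, with DMC1 and CTCF below the line. Narrow peaks are drawn wider than they are so that they can be seen. On chromosome 9 most protein peaks sit in the last 1 Mb, and DMC1 and CTCF are spread over the 3 Mb.

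Peaks at the ends were wide. Their median width exceeded that of the rest of the list in 19 of 21 lists, for example 4500 bp against 1940.5 bp for HORMAD1 in Prdm9KO and 3112 bp against 2248 bp for IHO1 in the wild type. The exceptions were MEI4 in Spo11KO (1543 against 1661 bp) and SYCP3 in Mei4KO (1587 against 1650 bp). Of the 656 peaks of at least 10 kb in all lists, 218 were at these ends, 33.2%. In the wild-type MEI4 list it was 10 of 11. The widest peak of chromosome 4 was MEI4 in the wild type, 36637 bp over Isg15, Klhl17, Perm1 and Plekhn1 (chr4:156197805-156234441). On chromosome 13 it was SYCP3 in Iho1KO, 39537 bp over Hmgcs1, which encodes a cholesterol synthesis enzyme, and Nim1k (chr13:119707839-119747375).

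Most peaks at these ends were not at meiotic break hotspots, although nearly all wild-type MEI4 peaks elsewhere were. In the wild type 19 of 44 MEI4 peaks at the ends, 43.2% (interval 29.7 to 57.8), overlapped a wild-type DMC1 hotspot, against 1491 of 1522 in the rest of the list, 98.0%, and 96.4% of the list as a whole. The difference was -54.8 points (interval -68.3 to -40.2). It was -45.2 points for SYCP3, with 16.4% against 61.6% (60.0% of the whole list). IHO1 had 16.7% against 41.9% (40.6% of the whole list), and HORMAD1 16.1% against 42.2% (41.3% of the whole list). Without chromosome 9 the differences for IHO1 and HORMAD1 were -15.6 points each and no longer called. The wild-type MEI4 list held 56 peaks off hotspots in all, and 25 of them, 44.6% (interval 32.4 to 57.6), were at these ends.

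In Spo11KO 57.9% of the MEI4 peaks at the ends were at hotspots, in Hormad1KO 59.3% and in Iho1KO 90.5%, against 97.6 to 98.9% in the rest of these lists. Without chromosome 9 the difference in Spo11KO turned from -41.1 to 1.05 points, not called. The Iho1KO list had 2 of 21 MEI4 peaks off hotspots there, and its call was lost under 5 of the alternatives. In Prdm9KO, whose hotspots differ from those of the wild type, IHO1 and HORMAD1 showed the opposite order: 16.4% of IHO1 peaks and 19.4% of HORMAD1 peaks at the ends overlapped a wild-type hotspot, against 3.47% and 4.46% elsewhere. Both were called, but neither with 1 kb at the centre of each peak, and IHO1 not without chromosome 9. For MEI4 it was 13.7% against 3.45%, not called, and for SYCP3 15.5% against 27.5%, called lower but 7.35 points higher with the Hormad1KO hotspots. Over the 21 lists the share at the ends was lower than in the rest in 11, higher in 6 and not called in 4. It was lower in 3 without chromosome 9.

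Within the windows the share of peaks at hotspots was higher further inside, although more of the peaks at hotspots lay in the last 1 Mb over all lists. In the wild type all 12 MEI4 peaks that lay 1 to 3 Mb from the last peak end were at DMC1 hotspots, and 7 of the 32 in the last 1 Mb. Over all lists 105 of 178 inner peaks (59.0%) and 166 of 1004 peaks of the last 1 Mb (16.5%) were at hotspots. The strongest wild-type DMC1 hotspot of the chromosome 13 window (chr13:118557223-118559304, deposited value 2084) is an example of the inner kind. It ranked 765 in the DMC1 list, lay 1761 kb from the last peak end with no protein-coding gene within 50 kb, and 12 lists had a peak over it, among them MEI4 in the wild type, Spo11KO, Iho1KO and Hormad1KO but no list of Prdm9KO or Mei4KO. The strongest of chromosome 4 (chr4:154797977-154799630, value 1422), with Ttc34 the nearest protein-coding gene within 50 kb, was in 4 lists. That of chromosome 9 (chr9:123033861-123035670, value 530.5) lay over Tgm4, a transglutaminase gene, and was in 5 lists.

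**Figure D3:**
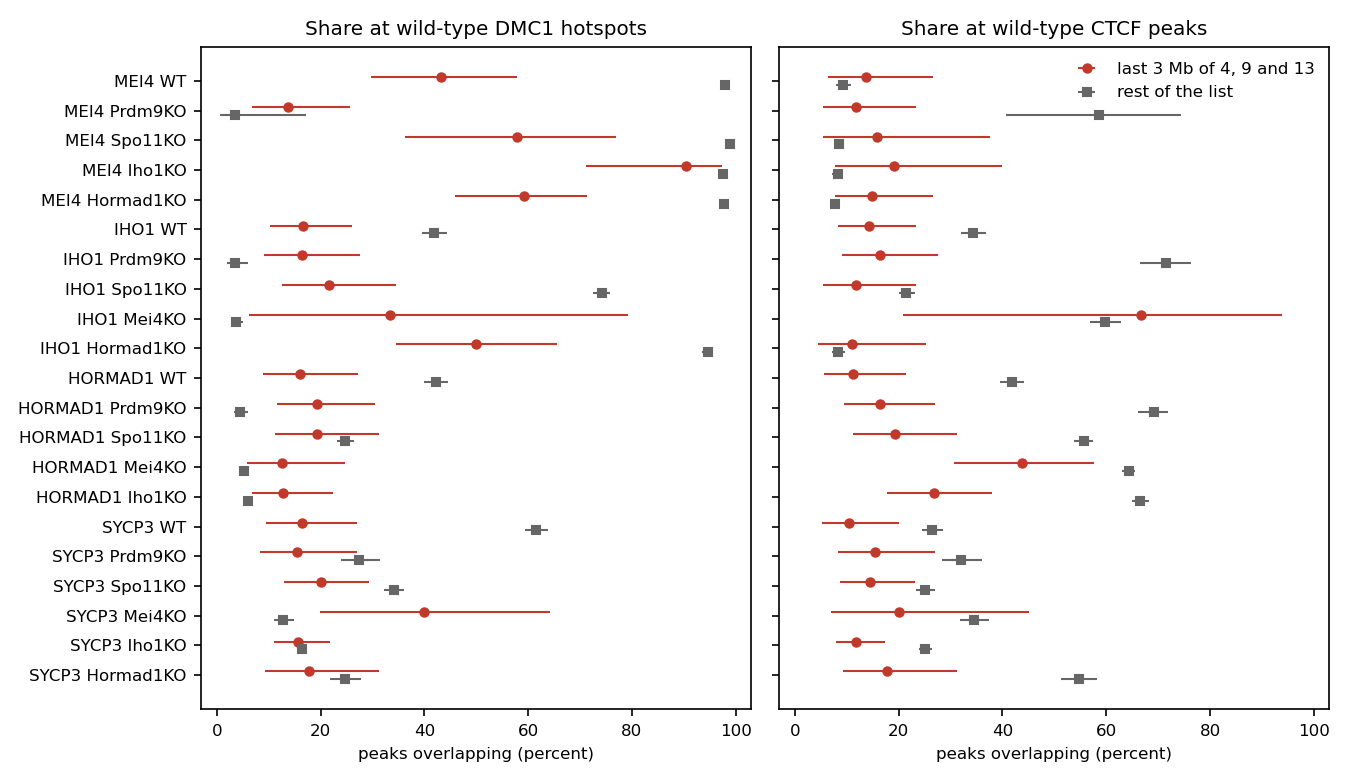
Share of peaks that overlap wild-type DMC1 hotspots (left) and wild-type CTCF peaks (right), in percent with Wilson 95% intervals, for peaks in the last 3 Mb of chromosomes 4, 9 and 13 (red circles) and for the rest of each list (grey squares). For MEI4 in the wild type the DMC1 share is 43.2% at the ends and 98.0% in the rest.

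CTCF peaks overlapped few of the sites at these ends. Wild-type CTCF peaks overlapped 13.6% of the MEI4 peaks at the ends, 14.3% of the IHO1 peaks, 11.3% of the HORMAD1 peaks and 10.4% of the SYCP3 peaks, against 9.45%, 33.4%, 40.7% and 26.0% of the whole lists. The difference from the rest of the list was called lower for 3 proteins, at -20.1 points (IHO1), -30.5 (HORMAD1) and -16.1 (SYCP3). It was 4.31 points for MEI4 (interval -3.09 to 17.5), not called. The 3 chromosomes differed. Over the 21 lists CTCF overlapped 67 of 818 peaks on chromosome 9, 8.19%, but 84 of 204 on chromosome 4, 41.2%, and 40 of 160 on chromosome 13, 25.0%. Counted by merged region the contrast was smaller. A CTCF peak lay in 16 of 92 regions on chromosome 9, 19 of 57 on chromosome 4 and 12 of 50 on chromosome 13. Without chromosome 9 the wild-type differences were 7.69 points for IHO1, 9.20 for SYCP3 and -8.47 for HORMAD1, none of them called. Prdm9KO showed the largest gap of the genotypes for IHO1, with 16.4% at the ends against 71.6% elsewhere. HORMAD1 there had 16.4% against 69.1%. HORMAD1 in Mei4KO had 43.8% against 64.3%. Without chromosome 9 the IHO1 difference in Prdm9KO, -55.2 points, was -26.2 and not called. Taking hotspots and CTCF peaks together, 430 of 1182 peaks at the ends (36.4%) and 75.5% of the peaks elsewhere overlapped either. Counted by CTCF peak instead, 50 of the 155 CTCF peaks at the ends held a peak of some list. A wild-type IHO1 peak was at 8.39% of them, against 1.58% of CTCF peaks elsewhere. For IHO1 in Mei4KO it was 1.29% against 1.89%, not called. The ends were chosen by these protein peaks, so the counts by CTCF peak are a description.

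Gene promoters were more often under peaks at these ends than elsewhere in most lists. A RefSeq promoter lay under 10 of 44 wild-type MEI4 peaks at the ends, 22.7%, against 2.37% in the rest of the list, a difference of 20.4 points (interval 10.4 to 34.6). Over all 21 lists promoters lay under 301 of 1182 peaks at the ends, 25.5%, and under 16.1% of all peaks. The difference was called higher in 15 lists and lower in 1, SYCP3 in Iho1KO with 29.8% against 57.7%, and not called in 5. The 3 chromosomes differed here too. Over the 21 lists the promoter share was 42.2% on chromosome 4 and 23.1% on chromosome 9. On chromosome 13 it was 26 of 160 peaks, 16.25%, close to the share of all peaks. Wider peaks cover more sequence, and the density of promoters differs between places. The 3 windows held 209 of all 32851 promoters, with 70 protein-coding genes on chromosome 4, 56 on chromosome 9 and 23 on chromosome 13. The parts of width and of promoter density in these shares were not tested.

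Peaks of the 4 proteins often overlapped each other at the ends. In the wild type 23 of 44 MEI4 peaks overlapped an IHO1 peak, 52.3%, against 27.0% of the whole MEI4 list. Their difference from the rest of the list, 26.0 points, was 8.72 without chromosome 9 and 4.81 among the wider peaks, neither called. Of the 62 HORMAD1 peaks 51 were at an IHO1 peak, 82.3%, against 53.7% elsewhere. IHO1 was at HORMAD1 peaks as often at the ends (61.9%) as in its whole list (61.7%), and SYCP3 in 62.7% against 52.2%. In Prdm9KO 34 of 61 IHO1 peaks at the ends held MEI4, 55.7%, against 5.68% elsewhere, and 38 of 67 HORMAD1 peaks, 56.7%, against 1.805%. The MEI4 list of Prdm9KO had only 29 peaks outside the ends, which limits these shares elsewhere. In the other direction 94.1% of its 51 peaks at the ends were at IHO1, against 79.3% elsewhere, called higher. At HORMAD1 it was 82.4% against 72.4%, not called, and at SYCP3 84.3% against 58.6%, called higher. Of the 54 ordered pairs of lists within a genotype 33 had a higher share at the ends, 3 a lower share and 18 were not called. Without chromosome 9 it was 13 higher and 5 lower, and the wild-type difference for HORMAD1 at IHO1 fell from 28.6 to -0.33 points.

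Peaks of different proteins also often began and ended close to the same positions. In the wild type both borders lay within 200 bp of each other in 39 of 52 overlapping pairs of IHO1 and HORMAD1 peaks at the ends, 75.0%, and in 217 of 936 pairs elsewhere, 23.2%. For IHO1 and SYCP3 it was 29 of 55 pairs (52.7%) against 19.5%. For MEI4 and IHO1 it was 2 of 45 pairs (4.44%), and the larger of the 2 border distances had a median of 9207 bp. In Prdm9KO MEI4 and IHO1 shared both borders in 11 of 48 pairs, 22.9%, against 26.1% elsewhere, and MEI4 and HORMAD1 in 24 of 42, 57.1%, against 42.9%. Peaks of the same list were also separated by short gaps. In the last 1 Mb of chromosome 9, 197 of 715 gaps between neighbouring peaks of a list were under 1 kb, 27.6%, against 1.87% of 43962 gaps elsewhere.

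Of the 199 merged regions, 33 were in 10 or more lists, 24 of them on chromosome 9, 4 on chromosome 4 and 5 on chromosome 13, and 79 were in 1 list. Of the 79, SYCP3 in Iho1KO alone accounted for 45. SYCP3 in Iho1KO had a peak in all 33 recurrent regions, SYCP3 in Spo11KO in 31 and HORMAD1 in Prdm9KO in 29. MEI4 was in 23 of them in the wild type, 21 in Prdm9KO, 19 in Hormad1KO, 11 in Spo11KO and 7 in Iho1KO. IHO1 was in 27 in the wild type, 28 in Prdm9KO, 19 in Spo11KO, 13 in Hormad1KO and 1 in Mei4KO. In Mei4KO SYCP3 had a peak in 6 and HORMAD1 in 12, not all of them regions with a wild-type peak of the same protein. A wild-type DMC1 hotspot lay in 10 of the 33 regions and a CTCF peak in 8. On chromosome 4 a CTCF peak lay in all 4 recurrent regions and a hotspot in none. On chromosome 9 a CTCF peak lay in 3 of 24 and a hotspot in 8, and on chromosome 13 in 1 and 2 of 5.

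**Figure D4:**
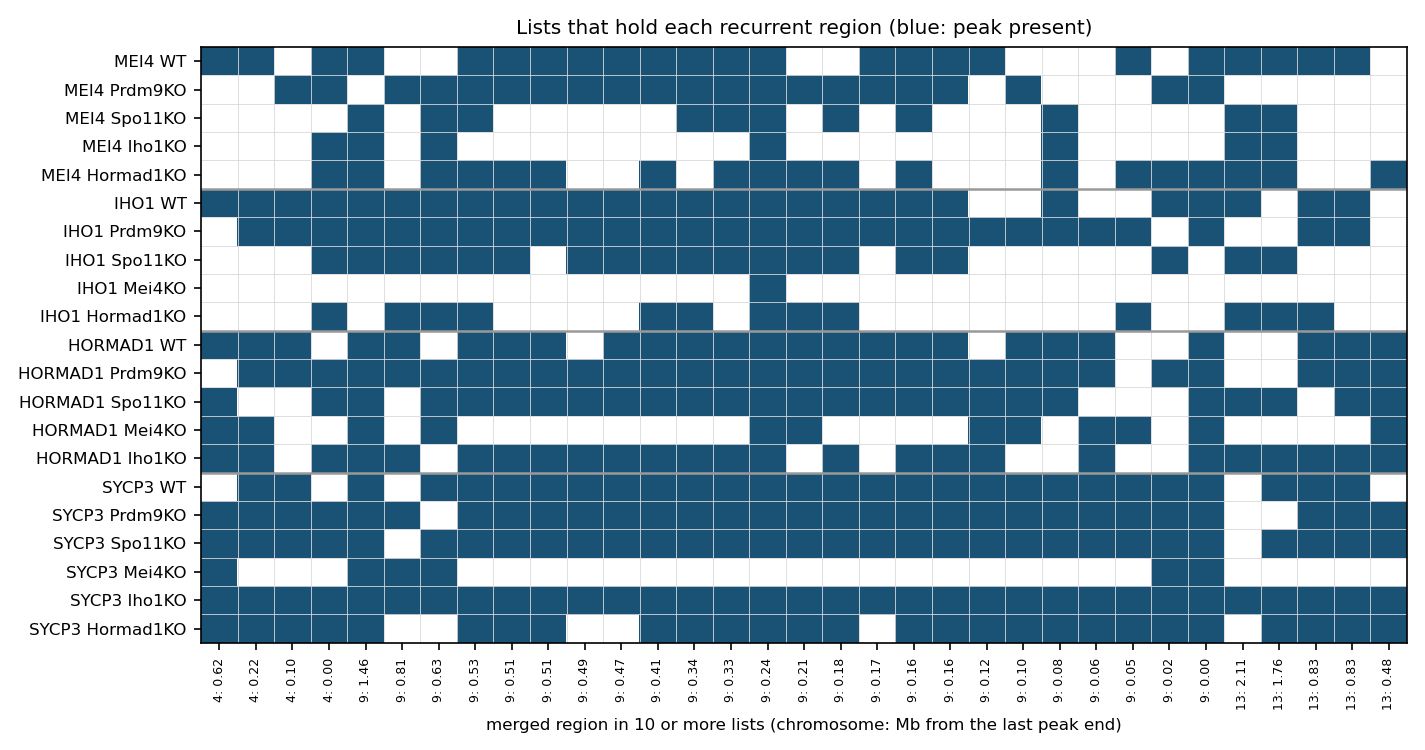
The 33 merged regions that are in 10 or more of the 21 lists (columns, labelled by chromosome and distance to the last peak end in Mb) against the lists (rows), with blue where the list has a peak. IHO1 in Mei4KO holds 1 of the 33 regions and SYCP3 in Iho1KO all 33.

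The region in most lists, 20 of 21, was on chromosome 9, 237 kb from the last peak end (chr9:124248858-124258029). The nearest protein-coding gene within 50 kb was Gm39469, and SYCP3 in Mei4KO was the missing list. It held a pair of sites. At the inner one 16 lists had a peak that began within 100 bp of the median start. The outer one coincided with the CTCF peak chr9:124256316-124257897, whose deposited score of 31.4 was rank 2 of the whole CTCF list. In 18 of the 20 lists both borders of the peak lay within 200 bp of that CTCF peak. The peaks there were 1448 bp (IHO1 in Mei4KO) to 9172 bp wide (MEI4 in the wild type), and the CTCF peak itself 1582 bp. A pair of wild-type DMC1 hotspots, the higher with a value of 146.5, also lay in the merged region. The site stood in row 1 of 11 of the lists and in rows 1 to 10 of 17. What orders the rows of these lists is not given in the sources used here, while the CTCF list runs by falling score.

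Further regions of chromosome 9 lay over the chemokine receptor genes Ccr1 and Ccr3. The region over Ccr1 (chr9:123923105-123966150) was in 17 lists, and in 15 of them the first peak began within 100 bp of the same position. It was 1 peak of 43042 bp for MEI4 in the wild type, while IHO1, HORMAD1 and SYCP3 in the wild type had a first peak of 20250, 20227 and 20310 bp. In Prdm9KO that first peak measured 20236 bp for MEI4, 20322 bp for IHO1 and 20333 bp for SYCP3, but 36754 bp for HORMAD1. The region over Ccr3 (chr9:124027088-124080822), a receptor of eosinophils, was in 16 lists, with all 4 proteins in both the wild type and Prdm9KO and no list of Mei4KO. A region over Kif15, Tgm4 and Tmem42 (chr9:123017577-123036526), 1459 kb from the last peak end, was in 18 lists. Kif15 encodes a mitotic kinesin. The last region of the chromosome (chr9:124493052-124495095, nearest gene Ppp2r3d) was in 16 lists, among them HORMAD1 and SYCP3 in Mei4KO.

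On chromosome 4 the region in most lists was the last one before the end (chr4:156356327-156358040, nearest gene Vmn2r129, of the vomeronasal receptor family), in 15 lists. Its peaks were 978 to 1609 bp wide, and in 13 lists they began within 100 bp of the median start. It held all 4 proteins in Prdm9KO and MEI4 and IHO1 in the wild type. HORMAD1 and SYCP3 in the wild type, MEI4 in Spo11KO and the 3 lists of Mei4KO had none there. Further inside, a region over Rnf223 (chr4:156117399-156140153) was in 12 lists. The region over Samd11 (chr4:156254341-156255970), whose promoter is printed above, was in 10 lists with both borders within 100 bp of the medians in each. A region over Cdk11b, Mib2 and Mmp23 (chr4:155648843-155665585) was in 8 lists.

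On chromosome 13 there were 3 regions in 12 lists each. The hotspot at chr13:118557154-118559972 was described above, and a pair of short regions lay over Tmem267 (chr13:119491294-119492830 and chr13:119494332-119495339), with all 4 proteins in the wild type. The Tmem267 regions held no DMC1 hotspot and no CTCF peak. Within the second of them the peaks were 491 to 1008 bp wide, and in 12 of 12 lists they ended within 100 bp of the same position. A further hotspot region (chr13:118206380-118209917, DMC1 value 1583) and a region near AF067063 (chr13:119836508-119837244, with a CTCF peak) were in 10 lists each. The last region of the chromosome (chr13:120319228-120320973, nearest gene Tcstv3) was in 4 lists.

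Wild-type peaks at these ends were looked for in the knockout lists of the same protein. In Prdm9KO wild-type peaks at the ends were found again far more often than those of the rest of the genome. It was 17 of 44 MEI4 peaks, 38.6%, against 0.53% of the rest and 1.60% of the whole list, 81.0% against 13.9% for IHO1, 87.1% against 34.4% for HORMAD1 and 79.1% against 10.1% for SYCP3. All 17 MEI4 peaks found again were in the last 1 Mb, and none of the 12 inner ones. Outside the ends the Prdm9KO lists held only 29 MEI4, 317 IHO1, 942 HORMAD1 and 549 SYCP3 peaks, which limits the shares there. In the other direction, 68.6% of Prdm9KO MEI4 peaks at the ends were at wild-type ones, against 34.5% elsewhere. For SYCP3 it was 74.1% against 33.9%, both called higher. For IHO1 it was 72.1% against 65.0% and for HORMAD1 65.7% against 60.3%, neither called. In Spo11KO and Iho1KO wild-type MEI4 peaks were found again less often at the ends, with 25.0% against 93.0% and 29.5% against 80.6%. The inner peaks were kept more often there: 11 of 12 in Iho1KO, against 2 of the 32 peaks of the last 1 Mb. In Hormad1KO it was 52.3% of MEI4 peaks against 92.3%, and 19.0% of IHO1 peaks against 31.8%, the latter not called without chromosome 9 or with an overlap of at least 50%.

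In Mei4KO the wild-type peaks of IHO1 at the ends were nearly all missing. Only 3 of 84 were found again, 3.57% (interval 1.22 to 9.98), against 29.7% of the rest and 28.3% of the whole list. For SYCP3 it was 5 of 67, 7.46%, against 16.7% of the rest (16.4% of the whole list), a difference of -9.24 points (interval -13.8 to -0.24) that was no longer called under 6 of the alternatives. HORMAD1 kept 13 of 62, 20.97%, against 34.1% (33.6% of the whole list), and without chromosome 9 its difference turned from -13.1 to 5.94 points, not called. SYCP3 peaks were kept in the other knockouts, with 85.1% found again in Iho1KO, 82.1% in Spo11KO and 53.7% in Hormad1KO, each above the rest of the list. Without chromosome 9 the differences of 53.5 points in Iho1KO and 44.8 points in Spo11KO became 11.2 and 5.55 points, not called. For IHO1 and HORMAD1 in Spo11KO the shares were 53.6% and 71.0%, differences of 3.60 and 5.69 points that were not called and that became -28.9 and -31.9 points, called lower, without chromosome 9.

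**Figure D5:**
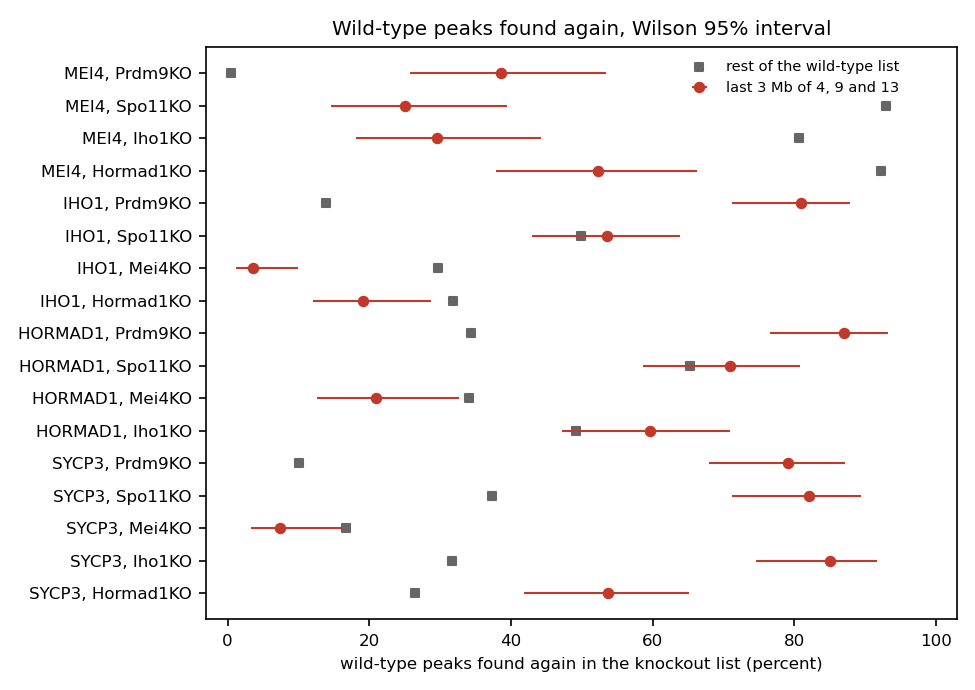
Share of wild-type peaks that overlap a peak of the same protein in each knockout list, in percent, for peaks in the last 3 Mb of chromosomes 4, 9 and 13 (red circles, Wilson 95% interval) and for the rest of the wild-type list (grey squares). IHO1 in Mei4KO is at 3.57% and HORMAD1 in Prdm9KO at 87.1%.

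DMC1 itself had 83 wild-type hotspots and 62 Hormad1KO hotspots at these ends. By chromosome, the wild type had 36 on chromosome 4, 28 on chromosome 9 and 19 on chromosome 13, and Hormad1KO had 16, 24 and 22. These were 0.601% of the wild-type list and 1.24% of the Hormad1KO list, a difference of 0.638 points (interval 0.331 to 1.00). The wild-type hotspots at the ends had a median deposited value of 98.0, against 130 elsewhere, yet 63.9% of them (interval 53.1 to 73.4) were found again in Hormad1KO, against 34.3% elsewhere and 34.5% of the whole list. Among hotspots below the median value of 129, 29 of 57 were found again at the ends, 50.9%, against 6.53% elsewhere, and among the stronger ones 24 of 26, 92.3%, against 61.8%. Chromosome 13 kept all 19, chromosome 9 kept 19 of 28 and chromosome 4 kept 15 of 36, 41.7%. Of the 62 Hormad1KO hotspots, 9 (14.5%) were at no wild-type hotspot, against 4.72% elsewhere. At wild-type hotspots of the ends, protein peaks were more common than at other hotspots in 17 of the 21 lists. The ends were chosen by these protein peaks, so this is a description and tests nothing. MEI4 in Spo11KO was less common, at 13.3% against 27.4%, a difference of -14.1 points (interval -19.9 to -5.16), and MEI4 in Iho1KO and IHO1 in Spo11KO and Mei4KO were not called. MEI4 in the wild type was at 20 of 83, 24.1%, against 10.9% elsewhere, and IHO1 at 16.9% against 4.07%.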

How the data were processed

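The data are chromatin immunoprecipitation peak lists of synchronised mouse testes, 1 per group. Reads were aligned and peaks called with tools that include Bowtie2 and MACS2 on mm10, per the submitters' processing notes, and whether samples were pooled is not given in the sources used here. The authors subtracted the signal of each protein's own knockout before depositing the lists, per the series' design text. The 21 protein lists hold positions only. The deposited DMC1 lists add a signal value per hotspot and the deposited CTCF list a score per peak, and both were used only to rank and describe within their list.

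Peaks were taken with Python 3.11.15 and pandas 2.3.3. A peak belonged to a window where its centre lay within 3 Mb of the last peak end of the chromosome over all 24 lists. Overlap meant at least 1 bp. Shares were compared with Newcombe 95% intervals, and no p-value was computed. The overlap, interval, merging and run functions were tested on simulated data. The members and lists were chosen with earlier results of these data known. Regions are named by 1 rule: in each window the 5 merged regions in the most lists, the widest peak, the strongest wild-type DMC1 hotspot and the region closest to the end. Genes and promoters come from RefSeq on GRCm38.p6, the same assembly as mm10, with a gene named where it overlaps the region or else the nearest within 50 kb. Some regions that meet the rule are not reported here. The promoters printed were chosen after their values were seen.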

Additional observations from a re-analysis of the deposited data

How the results depend on the processing

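The depth behind the lists is unknown and there is no replicate spread, so intervals cover counting error only, and a list with few peaks at the ends, such as IHO1 in Mei4KO, limits what can be seen. No paired analysis was possible because each group has 1 peak list that is not split by replicate, and for the same reason no replicate was left out. Measuring the windows from the chromosome end was not run, since no genome sequence was used. The cause of the changes below was not tested, beyond fewer peaks being left. Chromosome 9 weighed most. Without it, 364 peaks remained (MEI4 68, IHO1 50, HORMAD1 98, SYCP3 148), 115 of them in runs of 3 or more against 778 with it. Knockout lists with a lower share than the wild type were then 6, against 10, and SYCP3 in Iho1KO differed by 0.61 points. Lists with a DMC1 share lower or higher at the ends were 3 and 3, with differences of -15.6 points for wild-type IHO1 and HORMAD1 and 1.05 for MEI4 in Spo11KO. For CTCF 1 list was lower and 1 higher, and the wild-type differences were 7.69 points for IHO1, -8.47 for HORMAD1 and 9.20 for SYCP3, with 22.5 for SYCP3 in Prdm9KO. Ordered pairs were 13 higher and 5 lower, and in the wild type the difference was -0.34 points for MEI4 at SYCP3, -26.4 for IHO1 at SYCP3, -0.33 for HORMAD1 at IHO1, -18.7 for HORMAD1 at SYCP3 and -1.77 for SYCP3 at IHO1. Peaks found again differed by -28.9 points for IHO1 and -31.9 for HORMAD1 in Spo11KO and by 5.94 for HORMAD1 in Mei4KO. Taking the wider 50% of each list left 767 peaks (MEI4 121, HORMAD1 195, SYCP3 291), 478 in runs. The CTCF differences of IHO1 and SYCP3 in the wild type were then -9.53 and -3.20 points, not called, the DMC1 difference of MEI4 in Iho1KO was 2.48 points, and MEI4 in the wild type was at HORMAD1 and SYCP3 peaks less often than elsewhere, by -2.45 and -14.5 points. The lists with a higher DMC1 share, 6, were 3 with a 5 Mb window and without chromosome 4, 2 with 1 kb at each peak's centre and 1 with the stronger DMC1 hotspots. Those with a higher CTCF share, 0, were 2 with a 1 Mb window and 1 with the wider peaks, without chromosome 13, with an overlap of at least 50% and with 1 kb at the centre. A 1 Mb window held 125 merged regions, against 199. With the Hormad1KO DMC1 list SYCP3 in Prdm9KO differed by 7.35 points, called higher. Without the 3 SYCP3 lists of 1 sample 127 SYCP3 peaks remained, against 453. The DMC1 share of wild-type MEI4 and SYCP3 peaks stayed lower at the ends under every alternative run. Knockout lists in which wild-type peaks were found again more often, 7, ran from 5 to 9 over the alternatives, and those with fewer found again, 7, from 5 to 7.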
